A study of Mus musculus with 13 samples.

Results

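The 9 genes described here, Alas1, Alad, Uros, Urod, Cpox, Ppox, Fech, Hmox1 and Blvrb, encode enzymes that make or break down heme, and the question was where C/EBPα ChIP-seq regions from LSK cells lie around them. The regions were chosen by position, as the rows of the deposited candidate list with a centre within 100 kb of the annotated transcription start site (TSS) of a listed gene, and 17 of 17899 candidate regions met this rule. Because the presence of a region chose the members, their number, scores and distances are given as a description without a test. LSK cells are bone marrow cells sorted as negative for lineage markers and positive for Sca-1 and c-Kit, and they hold a mixture of stem cells and multipotent progenitors. The library analysed came from in vivo LSK cells of strain C57BL/6 cebpa flox/flox;Mx1Cre, in which the Cre recombinase is driven by the interferon-inducible Mx1 promoter, and its labels give an antibody against C/EBPα (Santa Cruz 14-AA) but neither a genotype nor an age or treatment. This is the strain in which the study deletes Cebpa by inducing Cre, and the labels give it to wild type and knock out histone libraries alike. The labels alone thus do not settle whether Cebpa was intact in the cells of this library. The paper reports C/EBPα binding in LSK cells, with qPCR at selected regions. In the filtered list described below, 85.1% of regions held the C/EBP word (defined below), against 36.3% of all candidates. That list also rests on a second C/EBPα sample, and the genotype of this library was not tested. The other 12 of the 13 samples of the study were not analysed here. There was thus 1 library, and the scores and positions have no replicate here. Binding regions do not show which genes a cell expresses, so the LSK label could not be checked against its markers.

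Heme is an iron-containing porphyrin that is needed for hemoglobin, cytochromes, catalase and myeloperoxidase. Its synthesis begins and ends in mitochondria, with intermediate steps in the cytosol, and in non-erythroid cells it is limited by ALAS1. Heme oxygenase 1, the product of Hmox1, opens the heme ring and is induced by stress, and its product, biliverdin of the alpha form, is reduced by BLVRA. BLVRB reduces the beta form of biliverdin, and flavins. C/EBPα is a basic leucine zipper factor that drives granulocytic and monocytic differentiation and binds short palindromic sites. The 9 genes are not every enzyme of the pathway.

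Among the 9 genes, Hmox1 alone had a promoter region, defined as a centre within 1 kb of the TSS. None of the 7 synthesis genes and not Blvrb had a promoter region, and across 22367 protein-coding genes 3.03% did. Each of the 9 genes had at least 1 region within 100 kb, as did 79.2% of all protein-coding genes. The genes had 1 to 3 regions each, with a mean of 1.89 against 1.85 over all genes and a median of 2 in both. Of the 17 regions, 15 had the TSS of another gene as their nearest, and the exceptions were a region each at Hmox1 and Cpox.

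Sequences of mm9 are shown for the regions on which the description turns, namely the promoter region of Hmox1, the region of Urod with a high score, the region of Alad at a neighbouring start site, and the nearest regions of Uros and Blvrb. The stretches of Uros and Blvrb were picked after their words were seen. The C/EBP word was TTGCNNAA or TTACNNAA, where N is any base, read on either strand. Around Hmox1 the stretch from chr8:77617340-77617489, plus strand, ends at the base before the TSS, and capitals mark the C/EBP word (on the minus strand), the sequence TTGCAA and the E-box CACGTG in that order.
Hmox1: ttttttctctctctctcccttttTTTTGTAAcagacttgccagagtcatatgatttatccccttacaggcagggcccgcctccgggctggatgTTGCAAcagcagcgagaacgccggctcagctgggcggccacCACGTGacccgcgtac
For Urod the bases within 70 bp of the region centre are given, chr4:116714188-116714328, minus strand, with both C/EBP words in capitals.
Urod: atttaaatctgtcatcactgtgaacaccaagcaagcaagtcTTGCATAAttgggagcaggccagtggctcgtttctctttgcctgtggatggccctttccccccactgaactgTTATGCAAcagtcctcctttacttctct
For Alad the stretch is chr4:62186499-62186558, minus strand, and capitals mark the C/EBP word and an SP1 word, CCCGCCC.
Alad: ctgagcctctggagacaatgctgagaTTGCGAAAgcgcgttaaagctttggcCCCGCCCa
For Uros it is chr7:140914338-140914397, minus strand, and the capitals are a C/EBP word that overlaps TGACTTTGC, a match to the core of the antioxidant response element, TGACNNNGC.
Uros: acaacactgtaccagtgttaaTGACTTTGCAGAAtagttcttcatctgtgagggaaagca
For Blvrb it is chr7:28219931-28219991, plus strand, and the capitals are a further match to TGACNNNGC, on the minus strand, which contains the AP-1 word TGANTCA.
Blvrb: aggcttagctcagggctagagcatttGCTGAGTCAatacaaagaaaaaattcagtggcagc

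**Figure D1:**
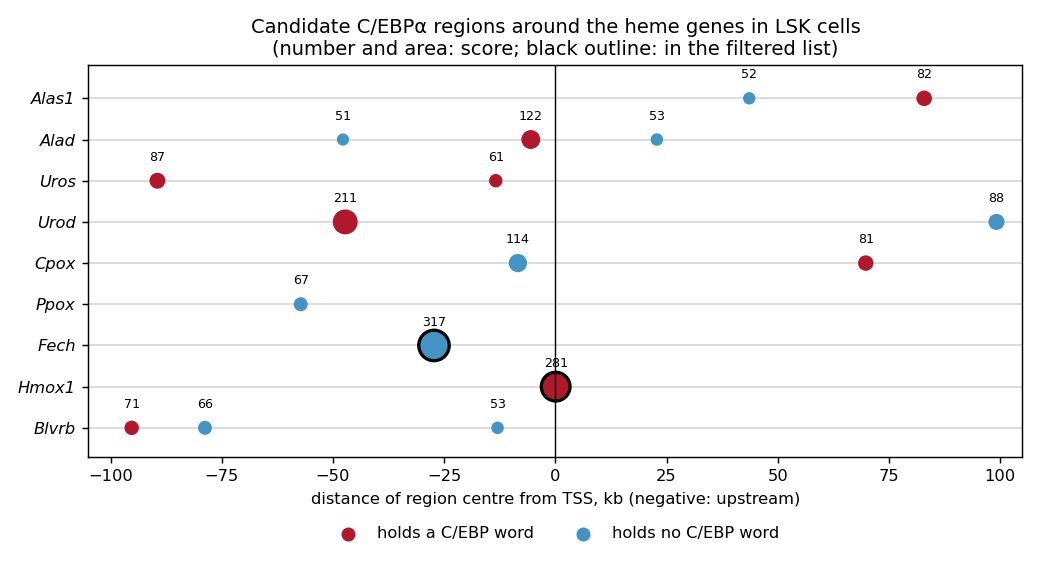
Each row is a heme gene and each point a candidate region at its distance in kb from the TSS of that gene, with the score as number and point area, red where the region holds a C/EBP word and outlined in black where it is in the filtered list. The Hmox1 region is the only point at a TSS, and the regions of Fech, Hmox1 and Urod have the highest scores.

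MACS, the peak caller, gave each region a score of minus 10 log10(p) for its reads against an IgG mock, so a higher score is stronger. The list reaches down to a MACS threshold of 1e-05. The 17 regions scored between 50.93 and 316.8, with a median of 81.23 against 73.75 for all candidates. Of these regions 5 reached a score of 100, where 20.3% of all candidates did, and 12 did not. By gene, 5 of the 9 had a region of at least 100 within 100 kb (27.7% of all genes), namely Fech, Hmox1, Urod, Alad and Cpox. A region of at least 200 lay near Fech, Hmox1 and Urod, which are 3 of the 9, against 5.38% of all genes. Only the Hmox1 region among these 3 was at the TSS of the heme gene itself. The study kept a shorter list after filters that included peak height, a second C/EBPα sample and IgG, so membership in it is the only bearing of a replicate on these regions. When its positions were matched to the deposited ones, 2 of the 17 regions, those near Fech and Hmox1, were in this filtered list, as were 2.22% of all candidates. Widths ran from 421 to 846 bp, with a median of 596 bp against 587 bp for all candidates.

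**Figure D2:**
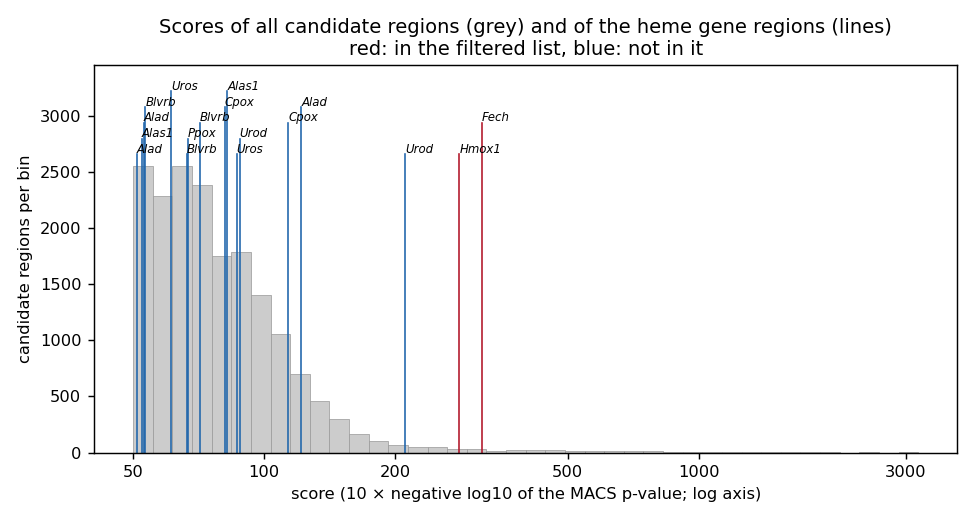
Grey bars count all 17899 candidate regions by score on a log axis, and each line is a region within 100 kb of the heme gene named at its top, red if in the filtered list and blue if not. Most of the 17 lines stand in the bulk below 100, and those of Urod, Hmox1 and Fech stand above 200.

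Alas1 encodes the rate-limiting enzyme of heme synthesis outside the erythroid lineage. The candidate nearest to its TSS (chromosome 9, 106150457, minus strand) was 43590 bp downstream, and 53.4% of all genes had a nearer region. That region, 106106451 to 106107282, scored 52.4, close to the lower limit of the list, and lay in intron 1 of Twf2, 1427 bp from the Twf2 TSS. It held no C/EBP word. A second region from 106067262 to 106067837 scored 82.4, lay between genes 82907 bp downstream of the Alas1 TSS, and carried TTGCAAAA 256 bp from its centre. Both were closer to other genes (Twf2 and Wdr82) than to Alas1.

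Alad encodes the enzyme that joins aminolevulinate into porphobilinogen. It had 3 regions on chromosome 4 around its TSS at 62180952, with scores of 121.8, 52.85 and 50.93. The highest of these, from 62186056 to 62186901, was 5526 bp upstream of Alad, but its centre was 75 bp from the TSS of 4933430I17Rik, in intron 1 of that gene. It is thus a promoter region of a neighbour, and the starts of 2 genes lie between it and the Alad TSS. Its C/EBP word TTGCGAAA was 50 bp from the centre, and SP1 words were at 2 and 24 bp. The other regions lay 22821 bp downstream, in the 3' UTR of Bspry, and 47749 bp upstream, in intron 2 of Rgs3, and neither held a C/EBP word.

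Uros encodes uroporphyrinogen III synthase, which closes the ring. Its regions on chromosome 7 were both upstream of the TSS at 140900964, at 13400 and 89464 bp, with scores of 61.17 and 86.58. The nearer lay in intron 10 of Dhx32, slightly closer to the Bccip TSS (13348 bp) than to that of Uros. It had the C/EBP word nearest to a centre of all 17 regions, TTGCAGAA at 3 bp, with an E-box at 92 bp. The farther region, in intron 1 of Fank1, held TTACATAA at 207 bp. Of its 32-base words 16.89% also occur elsewhere in the genome, where a read of 32 bases could not be placed uniquely. More than 10% of such words were repeated in 3 of the 17 regions and in 27.6% of all candidates.

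Urod encodes the decarboxylase that follows. The region 47240 bp upstream of its TSS (chromosome 4, 116667018) spanned 116714048 to 116714468 and scored 211.34. Only 1.88% of all candidates scored higher, and only 2.5% were narrower than its 421 bp. It lay in intron 3 of Eif2b3, which encodes a subunit of the translation initiation factor eIF2B, 22251 bp from the TSS of that gene. It was the only member with more than 1 C/EBP word, the same word TTGCATAA on opposite strands at 46 and 26 bp from the centre. All of its 32-base words were unique in the genome, and it is not in the filtered list. The other Urod region, at 99163 bp downstream in intron 1 of Zswim5, scored 87.88 and held no C/EBP word. Of its 32-base words 17.38% occur elsewhere in the genome.

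Cpox and Ppox encode the oxidases that act next in mitochondria. The Cpox region from 58661599 to 58662180 on chromosome 16 scored 113.75 and was intergenic, 8431 bp upstream of the Cpox TSS, which was the nearest start. It held no C/EBP word, but RUNX words at 118 and 212 bp from the centre and an ETS word at 166 bp. A region 69771 bp downstream scored 81.23 and carried TTGCCTAA at 206 bp. Ppox, which has 16 other protein-coding starts within 100 kb, had a single region at 57252 bp upstream of its TSS on chromosome 1, with a score of 66.7. That region lay over coding exon 3 of Dedd and the 3' UTR of Nit1 and held 3 GATA words, AGATAA, but no C/EBP word.

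Fech encodes ferrochelatase, which inserts iron in the last step. Its single region, on chromosome 18 from 64675591 to 64676431, had the highest score of the 17, 316.8, and 1.01% of all candidates scored higher. The region lay 27291 bp upstream of the Fech TSS but 200 bp from the TSS of Nars, an asparaginyl-tRNA synthetase gene, in intron 1 of Nars. Fech is thus placed near a strong region by distance alone, and the start that this region covers is that of its neighbour. No C/EBP word was found in it. It held the composite C/EBP-ATF word TGATGNAA at 2 places, 168 and 258 bp from the centre, a word that 8.68% of all candidates held. It also held TGACNNNGC at 2 places, 252 and 363 bp from the centre, a word that 23.5% of all candidates held. ETS words lay at 150 and 289 bp, AP-1 words at 203 and 251 bp, an SP1 word at 309 bp and a RUNX word at 317 bp. At 841 bp the region was wider than 94.1% of all candidates, and a wider region holds a word more often.

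Hmox1 is the heme-degrading enzyme of the set that stress induces. Its region on chromosome 8 spanned 77617229 to 77617885, with the centre 67 bp downstream of the TSS, in the 5' UTR in exon 1. Only 0.398% of protein-coding genes had a region nearer to their TSS. The score of 281.29 ranked 218 of all candidates, and of the 638 candidates within 1 kb of a protein-coding TSS 11.6% scored higher and the median was 81.86. No further candidate lay within 100 kb of Hmox1 on either side, where distal enhancers bound by NRF2 and BACH1 with small MAF proteins are known upstream. The C/EBP word TTACAAAA, read on the minus strand, was 190 bp from the region centre and itself centred 124 bp upstream of the TSS, and the stricter word TTGCNNAA was absent. The sequence TTGCAA, which joins the parts of the C/EBP palindrome without the usual spacing, was centred 54 bp upstream of the TSS. It was searched after the promoter had been read, and 14.1% of all candidates held it. The E-box, the word of USF and MYC family factors, was centred 14 bp upstream, and an AP-1 word, TGATTCA, lay 249 bp from the region centre. The first 111 bp of the region are a perfect tandem repeat with a unit of 5 bp, which makes up 16.9% of its width. The longest such repeat in the other 16 regions was 31 bp, and 0.0391% of all candidates had a repeat of at least 111 bp. Of the 32-base words of the region, 14.38% occur elsewhere in the genome, and 27.6% of all candidates had more than 10% of such words repeated. The part of the tandem repeat in the score was not tested.

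Blvrb encodes a biliverdin and flavin reductase. Its 3 regions on chromosome 7 were all upstream of the TSS at 28232997 and scored 71.09, 66.44 and 53.29, so all were below the median of the full list. The nearest, from 28219640 to 28220358 in intron 2 of Spnb4, was at 12998 bp and held TGACTCAGC 38 bp from its centre. This region held no C/EBP word. NRF2 and BACH1 with small MAF proteins are known to bind antioxidant response elements of this kind. TGACNNNGC was also found near Uros, Urod and Fech, at Fech likewise with an AP-1 word over it. Its share of 4 in 17 regions (23.5%) was the same as over all candidates (23.5%). The region at 78775 bp lay in coding exon 26 of Spnb4 and held none of the words searched, and that at 95252 bp lay in coding exon 7 of Shkbp1 and held TTACCCAA 74 bp from its centre.

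**Figure D3:**
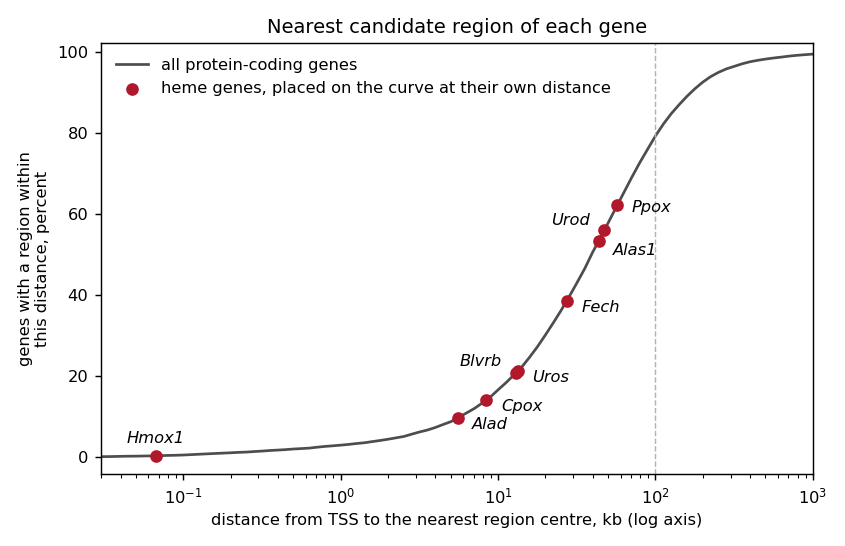
The curve gives the percentage of all protein-coding genes with a region centre within the distance on the log axis, and red points put each heme gene on the curve at the distance of its own nearest region. Hmox1 stands alone at 67 bp, and the other 8 genes spread from Alad at 5526 bp to Ppox at 57252 bp.

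Distances of the nearest region to the 9 TSSs had a median of 13400 bp, against 39289 bp over all protein-coding genes. Within 10 kb, 3 of the 9 genes had a region and 16.6% of all genes did. Each of the 9 genes had a region within 100 kb, and this presence chose them, while 20.8% of all genes had none. Shorter distances than over all genes thus follow in part from how the members were chosen. The closest pair of the list around these genes, both near Blvrb, was 16477 bp apart, and spacing was not compared with that of all candidates. By position 3 of the 17 were intergenic, 9 lay in introns and 5 in exons, and 3 had their centre within 1 kb of any TSS, those of Hmox1, Nars and 4933430I17Rik, against 3.56% of all candidates. Just inside the limit of 100 kb were the regions at 99163 bp from Urod (score 87.88) and 95252 bp from Blvrb (71.09), and just outside it were those at 111518 bp from Hmox1 (87.8) and 114965 bp from Urod (72.07).

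The C/EBP word was present in 8 of the 17 regions (47.1%, 95% exact binomial interval 23 to 72.2%, counting error only), where 36.3% of all candidates and 37.1% of candidates of like width held it. In the filtered list the share was 85.1%. Within 70 bp of the centre 3 of the 17 held the word, those of Urod, Alad and Uros, against 10.6% of all candidates. Neither of the 2 regions in the filtered list had it so close. The ETS word, NGGAAGN with A or C first and a pyrimidine last, was in 6 of 17 regions and in 33.9% of all candidates. The RUNX word, TGNGGTN with a pyrimidine at each N, was in 3 (24.6%). The GATA word, NGATAA with A or T first, was in 4 (37.5%). SP1 (5.94%) was in 3 regions, AP-1 (16.5%) in 5, TGACNNNGC (23.5%) in 4, TGATGNAA in 3 and the E-box (9.79%) in 2. The NRF1 core GCATGCGC (1.36%) was in 0, which with 17 regions allows a share of up to 19.5% by the exact interval. The intervals are wide at this number, and a match is a description and not a site.

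**Figure D4:**
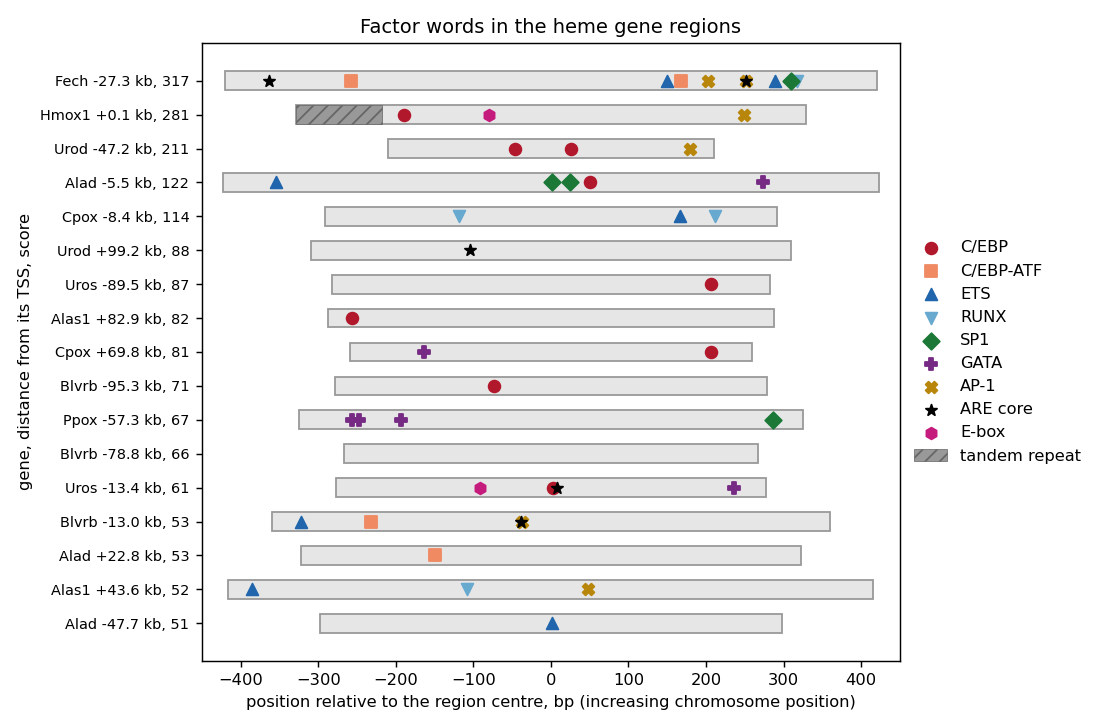
Bars are the 17 regions drawn to scale around their centres in bp and ordered by score, symbols are words on either strand, and the hatched part of the Hmox1 bar is its tandem repeat. C/EBP words stand near the centre in the regions of Urod, Alad and Uros, and off the centre, beside the repeat, in that of Hmox1. TTGCAA is not drawn.

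The promoters themselves were read from 250 bp before to 50 bp after each TSS, whether or not a region was there. The C/EBP word occurred in 1 of the 9, Hmox1, where 17.2% of 22362 promoters held it. SP1 was in 6 of 9 (Alad, Uros, Urod, Ppox, Fech and Blvrb; 32.9% of all), the E-box in 3 (Alad, Urod and Hmox1; 7.9%) and GATA in 2 (Cpox and Fech; 16.7%). The ETS word was in 1, Alad, against 28.5%. The Alas1 promoter held none of the words. The promoters ranged from 52.3 to 71.3% GC, with 55.7% as the median of all promoters, and that of Hmox1 had 52.7%.

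Genes around the pathway were counted in 4 lists with 41 members. Of these, 36 had a region within 100 kb and 2 had a promoter region, where the shares over all protein-coding genes were 79.2% and 3.03%. Among 5 other enzymes, Alas2, the erythroid form of ALAS, had its nearest region at 146428 bp, and Hmox2 and Blvra had their nearest at 31748 and 51295 bp. Cox15, which makes heme A, had a region 485 bp upstream of its TSS with a score of 201.06 and 2 C/EBP words, and the region also lies near the TSS of Cutc. Among 15 genes of heme, porphyrin and mitochondrial iron transport, Flvcr2, a heme and choline transporter, had a promoter region at 666 bp upstream with a score of 95.68 and 2 C/EBP words. None of the 10 genes of cellular iron had a promoter region, among them Tfrc, the transferrin receptor (nearest 47851 bp), and Fth1, ferritin heavy chain (16287 bp). Of the 11 regulators none had one within 1 kb either. Gata1 had its nearest region at 272802 bp and Bach1 at 23898 bp.

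**Figure D5:**
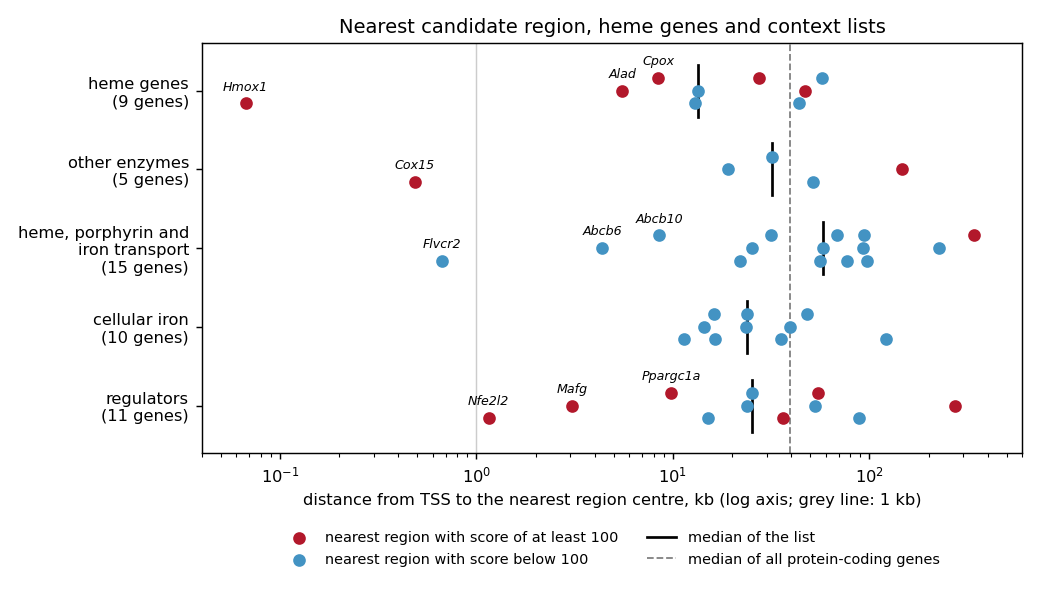
Each point is a gene at the distance of its nearest region centre on a log axis in kb, red where that region scores at least 100, with the median of each list as a black bar and the median of all genes as a dashed line. Hmox1, Cox15 and Flvcr2 lie below 1 kb, and Nfe2l2 lies just above it.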

How the data were processed

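C/EBPα ChIP-seq of 1 LSK library was analysed. The authors mapped reads to mm9 with bowtie (0.12.8 in the submitters' processing notes, 0.12.7 in the methods) and called regions with MACS 1.4.2 against an IgG mock. The deposited score of a region is minus 10 log10(p) from MACS. These are unfiltered candidates, so the list holds weak regions. Membership in the filtered list was taken from the region list published with the study, by identical positions, and only scores, widths and positions of the deposited file are printed, and the pooling of libraries is not given in the sources used here. The deposited list holds no read numbers, so the depth behind the scores is unknown from it. Starts were converted to count from 1.

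Sequence came from NCBIM37 (mm9) and genes from GENCODE vM1 of that assembly, with the TSS of the transcript of longest span for each of 22367 protein-coding genes. Words were counted on either strand between region start and end. Candidates of like width are those of the same of 5 width classes. All 9 genes are named, other genes where their TSS is nearest to a region scoring 100 or more or within 1 kb of one, and context genes with a promoter region. Other names were added after values were seen. Flvcr1, Flvcr2 and Tfr2 were found through older symbols of RefSeq (GRCm38.p6), used for names only. Members and lists were chosen with earlier results of these data known. The word search was tested on simulated data, where 100 of 100 planted words were found. No test was run. Alternatives were other distances, starts, scores, words and windows. Tools were samtools 1.23.1, Python 3.11.15 and its packages pysam 0.24.0, pandas 2.3.3, numba 0.67.0, numpy 2.4.6, matplotlib 3.10.9 and scipy 1.17.1.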

Additional observations from a re-analysis of the deposited data

How the results depend on the processing

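The number of heme genes with a promoter region was 1 under all 7 alternatives, which were limits of 500 bp, 2.5 kb and 5 kb, any annotated TSS, a region that covers the TSS, a score of at least 100, and the filtered list. The 17 regions became 10 with a limit of 50 kb and 3 with 10 kb, 5 with a score of at least 100 and 2 when the heme gene had to be the nearest, and stayed 17 with any annotated TSS or with distance from the region edge. The 9 genes with a region became 8 with 50 kb, 3 with 10 kb, 5 with a score of at least 100 and 2 when nearest. Fewer regions qualify by construction in each. The share with a C/EBP word of 47.1% was 0% for TTGCGCAA, 11.8% for TTGCAA (added after the sequence was seen) and 29.4% for TTGCNNAA. Over all candidates these words were in 1.02%, 14.1% and 24%. Among regions with a score of at least 100 the share was 60% (3 of 5), against 44.6% of all such candidates. Within 70 and 150 bp of the centre it was 17.6% and 23.5%, against 10.6% and 20.3% of all candidates. The median score of 81.23 was 121.80 within 10 kb, where 3 regions remain, and 71.09 to 84.49 without each gene in turn. No paired analysis was possible because only 1 library was analysed. The deposited list gives no depth, and with 17 regions of 1 library no share can be given narrowly.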

Other observations

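Genes of factors known to act on Hmox1 were looked at outside the naming rule, after their values were seen. Nfe2l2, which encodes NRF2, had a region 1153 bp downstream of its TSS (chromosome 2, 75541050 to 75542040) with a score of 312.74 and 3 C/EBP words, and it is in the filtered list. Mafg, a small MAF gene, had its nearest region 3084 bp downstream of its TSS (chromosome 11, 120491490 to 120492169) with a score of 152.14 and 0 C/EBP words, also in that list. Of the 5 regions within 100 kb of Mafg the highest score was 399.95, in a region that is not in that list. Among the 11 regulators 6 had a region of at least 100 within 100 kb, where the share over all protein-coding genes was 27.7%. The other lists had 1 of 5 (other enzymes), 3 of 15 (transport) and 3 of 10 (cellular iron). Over all 4 lists the count was 13 of 41, and the regulators were singled out after the values were seen. The nearest regions of Keap1 and Mafk, at 25187 and 88413 bp, scored 55.29 and 54.49. These values were not tested.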
